A study of Mus musculus with 16 samples.

Results

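The vesicular glutamate transporters are a family of 3 genes, Slc17a6 (VGLUT2), Slc17a7 (VGLUT1) and Slc17a8 (VGLUT3). They were taken by gene symbol, through the Ensembl identifier of each row, and made up 3 of the 21804 genes in the deposited table. RNA was sequenced from brain tissue of C57BL/6 mice aged 4 months that carried the Pdgfb retention allele on 1 chromosome (ret/wt, the controls) or on both (ret/ret). Each of 8 animals, 4 per genotype, gave 1 cortex and 1 thalamus library, so there were 4 groups of 4 libraries and 16 libraries in all. The ret/ret thalamus pieces were vessel calcifications cut out with the help of their autofluorescence, and the ret/wt thalamus pieces came from the matching place in controls. The cortex does not calcify in either genotype. No animal was wild type at Pdgfb, because the controls carry 1 retention allele too. The retention allele lacks the stretch that holds the growth factor PDGF-B near the vessel wall, and it acts in all cells that make PDGF-B, not in neurons alone.

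Vesicular glutamate transporters sit in the membrane of synaptic vesicles and fill them with glutamate, using the gradient that a proton pump builds across that membrane. As textbook background, VGLUT1 is the main form in excitatory neurons of cortex and hippocampus and in granule cells of the cerebellum, and VGLUT2 is the main form in relay neurons of the thalamus and in many other subcortical neurons. VGLUT3 is found in neurons that release another transmitter as well, among them serotonergic neurons of the raphe, cholinergic neurons of the striatum and basket cells that hold cholecystokinin. Because the axons of relay neurons end in the cortex, VGLUT2 protein is abundant there, while the RNA stays mostly in the cell bodies of the thalamus. RNA levels such as those below are therefore levels in the tissue that holds the cell bodies.

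The 3 genes encode related proteins, so the coding sequences are shown here to let a reader see what a sequencing read could tell apart. Slc17a6 (ENSMUSG00000030500) lies on chromosome 7 at 51622006 to 51671119 on the plus strand, Slc17a7 (ENSMUSG00000070570) on chromosome 7 at 45163949 to 45176142 on the plus strand, and Slc17a8 (ENSMUSG00000019935) on chromosome 10 at 89574020 to 89621253 on the minus strand, in GENCODE M21 on GRCm38. The longest coding transcript of each has 12 exons, with coding sequences of 1749, 1683 and 1806 bases. The lines below give 90 aligned coding bases, read from the reference transcripts, in which 60 positions hold the same base in all 3 genes and the 30 that do not are in capitals. The stretch begins at coding base 232 of Slc17a6, 208 of Slc17a7 and 286 of Slc17a8.
Slc17a6: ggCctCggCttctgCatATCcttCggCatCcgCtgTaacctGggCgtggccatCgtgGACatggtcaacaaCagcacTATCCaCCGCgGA
Slc17a7: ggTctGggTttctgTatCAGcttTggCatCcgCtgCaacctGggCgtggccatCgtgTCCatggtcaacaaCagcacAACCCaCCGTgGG
Slc17a8: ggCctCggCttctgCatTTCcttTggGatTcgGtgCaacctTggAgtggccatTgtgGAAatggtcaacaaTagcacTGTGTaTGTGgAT

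Over the aligned coding sequence the identity was 71.9% between Slc17a6 and Slc17a7, 71.1% between Slc17a6 and Slc17a8 and 70.0% between Slc17a7 and Slc17a8. The longest exact run shared by Slc17a6 and Slc17a7 was aacctgggcgtggccatcgtg, 21 bases that fall inside the stretch shown above. Slc17a6 and Slc17a8 shared at most 25 bases in a row, tcatgagcggcctcggcttctgcat, which end inside the same stretch, and Slc17a7 and Slc17a8 shared at most 17, ggttcctatgctggggc. No run of 31 bases, the default word length of the program that assigned the reads, was common to any 2 of the 3 genes. Of the 31-base words of each gene, 0.0367% of those of Slc17a6, 0.0% of those of Slc17a7 and 2.96% of those of Slc17a8 also occurred in a gene outside the family. The 3 genes could therefore be told from one another at this word length, and Slc17a8 shared more words with other genes than the other members did.

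Libraries held 13415391 to 29135064 counts, and 3 counts, the floor used here, came to 0.103 to 0.224 counts per 1000000 counts (CPM), which covers counting error only. The labelled regions were checked with marker genes: 9 of 10 markers of cortical excitatory neurons were lower in thalamus than in cortex in both genotypes, past an adjusted p of 0.05. Of the markers of thalamic relay neurons, 7 of 11 tested were higher and 1 lower in ret/wt animals, and 4 of 12 were higher in ret/ret animals. Several libraries stood apart in ways that the groups do not explain. The summed level of 12 cerebellar markers reached 2102 CPM in ret/wt cortex replicate 3 and 4858 CPM in ret/ret cortex replicate 2, and the cerebellar gene Gabra6 was at 181.7 and 396.8 CPM there. In ret/ret thalamus replicate 4 the summed level of 5 serotonergic markers was 201 CPM, against 7.89 to 27.9 CPM in ret/wt thalamus and 1.57 to 4.21 CPM in cortex. The animals that gave ret/wt replicate 3 and ret/ret replicate 2 were also the only ones with more than 0.219 CPM of the Y-linked gene Ddx3y, chosen after its values were seen, and the labels give no sex. In cortex, the summed level of hippocampal markers was 515 CPM in ret/ret replicate 1, the library with the most Slc17a7, and 343 CPM in ret/wt replicate 4. The others held 69.8 to 244 CPM. By mean log2 CPM of these markers the order was the other way, at 3.03 in ret/ret replicate 1 and 4.20 in ret/wt replicate 4. The same ret/ret library held 417 CPM of striatal markers, against 143 to 260 CPM in the other cortex libraries. Choroid plexus markers stood out in ret/wt cortex replicate 4. That ret/wt library held 1716 CPM of them, against 203 to 430 CPM in the other cortex libraries. The part of such tissue in the transporter levels was not tested.

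In ret/wt animals the transporter of relay neurons, Slc17a6, was higher in thalamus than in cortex in every animal, and the transporter of cortical neurons, Slc17a7, was lower. The 4 cortex libraries held 26.1, 27.6, 29.3 and 21.8 CPM of Slc17a6, and the 4 thalamus libraries of the same animals, in the same order, held 436, 419.5, 511.5 and 253 CPM. Every thalamus library lay above every cortex library, and the lowest of them was replicate 4. The means were 26.2 ± 3.23 CPM in cortex (SD, n = 4) and 405 ± 109 CPM in thalamus (SD, n = 4), a 15.5-fold difference. The fitted log2 fold change of Slc17a6 was 3.96 ± 0.25 (SE) and the adjusted p was 3.8e-05 (edgeR quasi-likelihood model, Benjamini-Hochberg over all genes). By its p-value Slc17a6 ranked 3 among the 14442 genes tested. Within animals the log2 difference of thalamus minus cortex ran from 3.53 to 4.12.

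The level of Slc17a7 in ret/wt cortex was 1379, 1256, 829 and 1345 CPM, and in ret/wt thalamus 10.1, 54.1, 265 and 39.3 CPM. The groups did not overlap, but the thalamus libraries spread widely: the highest, replicate 3, held 26.3 times as much as the lowest, replicate 1. The lowest cortex library, replicate 3, was the one with cerebellar markers. The mean of Slc17a7 was 1202 ± 254 CPM in cortex (SD, n = 4) and 92.1 ± 117 CPM in thalamus (SD, n = 4), 13.1-fold higher in cortex. The fitted log2 fold change was -3.70 ± 0.81 (SE; edgeR, adjusted p = 0.0145). Within animals the log2 difference was -7.08, -4.53, -1.65 and -5.09, all negative but unequal in size. Without the thalamus library of replicate 3 the fitted value was -5.11, and without the cortex library of replicate 3 it was -3.84.

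Slc17a8 was a low gene in both regions of control animals. It had 3.45, 3.29, 3.03 and 2.93 CPM in ret/wt cortex, from 44 to 69 counts per library, and 2.12, 2.11, 0.359 and 0.711 CPM in ret/wt thalamus, from 6 to 49 counts. The groups did not overlap, and the cortex libraries were close to each other while those of thalamus were not. The fitted log2 fold change of thalamus minus cortex was -1.24 ± 0.52 (SE; edgeR, adjusted p = 0.155), which did not pass the threshold. In ret/wt animals, then, 2 of the 3 transporters passed the test, 1 in each direction. Of all genes tested 12.6% passed, 5.44% as higher and 7.12% as lower in thalamus. All 3 members had groups that did not overlap, against 19.9% of all genes in either direction.

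**Figure D1:**
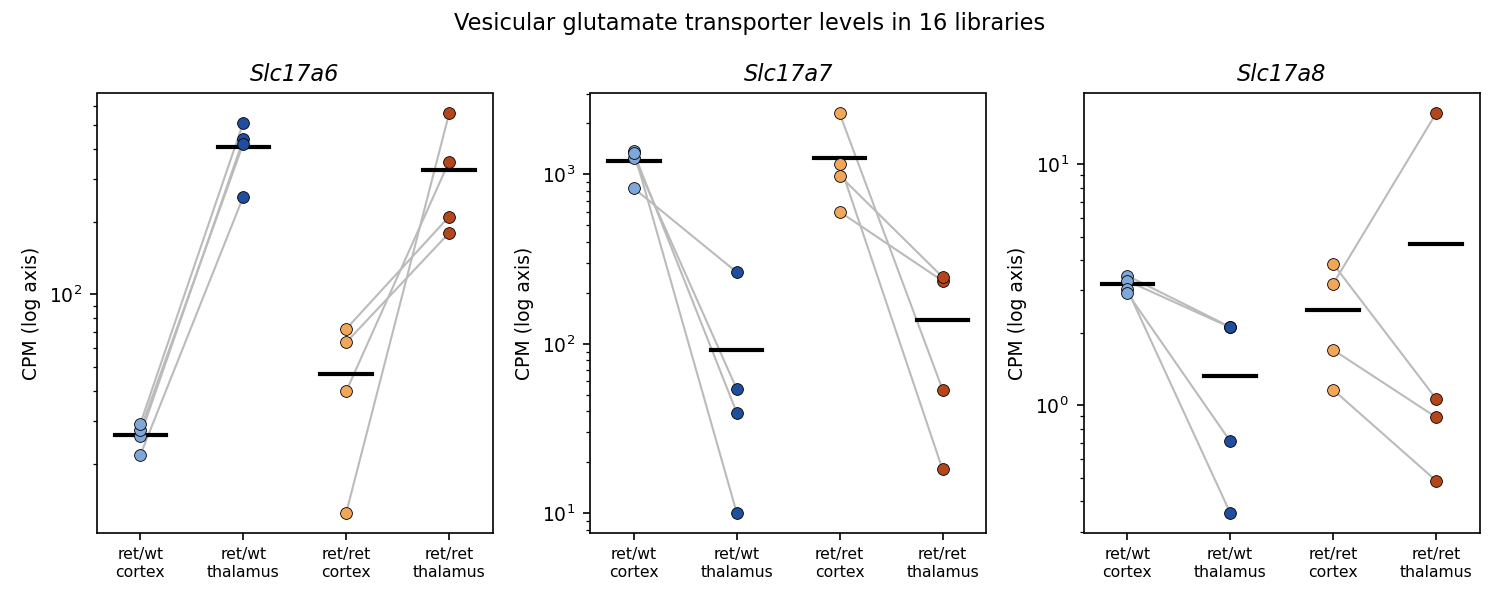
Level of each vesicular glutamate transporter in each of the 16 libraries, in CPM on a log axis, by genotype and region (4 libraries per group). Grey lines join the cortex and the thalamus library of the same animal and black bars are group means. Slc17a6 lies higher and Slc17a7 lower in thalamus in each of the 8 animals, while the high mean of Slc17a8 in ret/ret thalamus comes from 1 library at 16.3 CPM.

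In ret/ret animals, whose thalamus pieces were calcifications, Slc17a6 was again higher and Slc17a7 again lower in thalamus, and Slc17a6 spread more between animals than in controls. Slc17a6 was at 72.1, 12.6, 39.9 and 63.4 CPM in ret/ret cortex and at 209.6, 558, 354 and 179 CPM in ret/ret thalamus. The groups did not overlap, though the highest cortex and the lowest thalamus library were only 72.1 and 179 CPM. The means were 47.0 ± 26.7 CPM (SD, n = 4) and 325 ± 173 CPM (SD, n = 4), a 6.92-fold difference. The animal with the lowest cortex level, replicate 2, had the highest thalamus level, and its cortex library was the one with the most cerebellar RNA. The other cortex library with cerebellar RNA, ret/wt replicate 3, had the most Slc17a6 of its group (29.3 CPM). The fitted log2 fold change of Slc17a6 was 2.80 ± 0.55 (SE; edgeR, adjusted p = 0.0155). With the animal as a block the value was nearly the same, 2.82 ± 0.74 (SE), but the adjusted p was 0.0701, so the call was lost. It was lost as well without ret/ret cortex replicate 3 (adjusted p = 0.0529). Without both libraries of ret/ret replicate 2, the animal of this genotype with Y-linked reads, it was kept at 2.10 (adjusted p = 0.00501 by edgeR).

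Slc17a7 was at 2292, 602, 1154 and 985 CPM in ret/ret cortex and at 53.7, 235, 18.1 and 248 CPM in ret/ret thalamus. Again no thalamus library reached a cortex library, as was so in either direction for 17.5% of all genes, and the highest thalamus libraries, replicates 2 and 4, held over 10 times the lowest, replicate 3. The means were 1258 ± 727 CPM in cortex (SD, n = 4) and 139 ± 120 CPM in thalamus (SD, n = 4), 9.06-fold higher in cortex. The fitted log2 fold change was -3.18 ± 0.79 (SE; edgeR, adjusted p = 0.0360). With the animal as a block it was -3.68 ± 1.02 (SE; adjusted p = 0.0793). The call was also lost when any of 5 single libraries was left out, with adjusted p-values from 0.0595 to 0.0947, among them ret/ret thalamus replicate 4. In every one of these fits Slc17a7 stayed lower in thalamus.

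For Slc17a8 the ret/ret thalamus libraries fell apart. Replicates 1, 2 and 3 held 0.488, 0.894 and 1.07 CPM, from 11 to 22 counts, and replicate 4 held 16.3 CPM, from 323 counts. The ret/ret cortex libraries held 1.16, 1.70, 3.87 and 3.19 CPM, so the other thalamus libraries lay below every cortex library and replicate 4 lay above all of them. The fitted log2 fold change of thalamus minus cortex was 0.91 ± 1.03 (SE; edgeR, adjusted p = 0.615). Without replicate 4 of the ret/ret thalamus the sign turned, to -1.60 ± 0.58 (SE; adjusted p = 0.155), and with the animal as a block it was -0.48. In ret/ret animals 2 of the 3 transporters passed the test, 1 in each direction. Of all 14715 genes tested 9.50% passed, 4.10% as higher and 5.40% as lower in thalamus. With the animal as a block none of the transporters passed, and the calls over all genes fell from 1398 to 1177.

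The library with the high Slc17a8 level was the one with serotonergic markers. Tph2, the enzyme that makes serotonin in neurons, was at 121 CPM there and at 0.239 to 6.74 CPM in the other thalamus libraries, and Slc6a4, the serotonin uptake transporter, was at 64.3 CPM against 0 to 3.89 CPM. Of the 5 serotonergic markers, Gata3 passed the test as higher in thalamus in both genotypes, at 11.9 ± 4.84 CPM in the thalamus of controls and 10.4 ± 2.14 CPM in that of ret/ret animals (SD, n = 4 each), and Slc6a4 passed in ret/ret animals alone, with no test of the difference. The defining markers were not absent elsewhere: Tph2 was detected in every other thalamus library, and Slc6a4 in those other than ret/wt replicates 3 and 4. The part of serotonergic tissue in the Slc17a8 level was not tested. In bulk tissue, fewer cells of a type and less RNA per cell cannot be told apart.

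**Figure D2:**
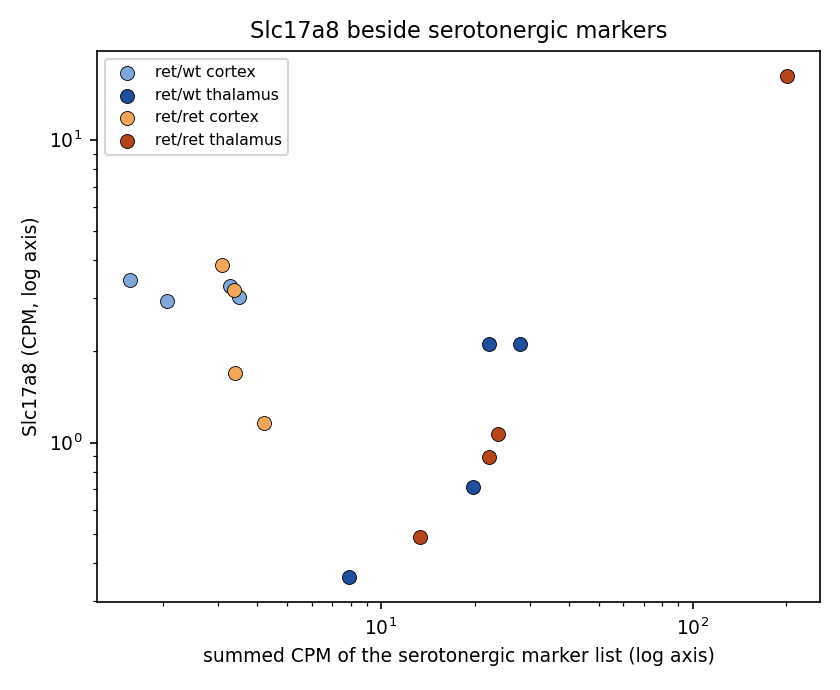
Level of Slc17a8 in CPM against the summed CPM of 5 serotonergic marker genes in the 16 libraries, both on log axes, coloured by group. Replicate 4 of ret/ret thalamus stands alone at the upper right, with 16.3 CPM of Slc17a8 and 201 CPM of the markers, and the cortex libraries have few markers with 1.16 to 3.87 CPM of Slc17a8.

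The balance of the main transporters was also read within each library, as the ratio of the Slc17a6 count to the Slc17a7 count, which does not depend on how libraries are scaled. In ret/wt cortex the log2 ratio was -5.72, -5.51, -4.82 and -5.95, and in ret/ret cortex it was -4.99, -5.58, -4.86 and -3.96. In ret/wt thalamus it was 5.44, 2.95, 0.95 and 2.69, and in ret/ret thalamus 1.96, 1.25, 4.29 and -0.47. All cortex libraries had more Slc17a7 than Slc17a6 counts, and 7 of the 8 thalamus libraries had more Slc17a6. The exception was ret/ret thalamus replicate 4, with 1.38 times as many Slc17a7 as Slc17a6 counts. The mean log2 ratio was 8.51 higher in thalamus than in cortex in ret/wt animals and 6.60 higher in ret/ret animals. Leaving out 1 library at a time gave 7.70 to 9.19 and 5.76 to 7.35.

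**Figure D3:**
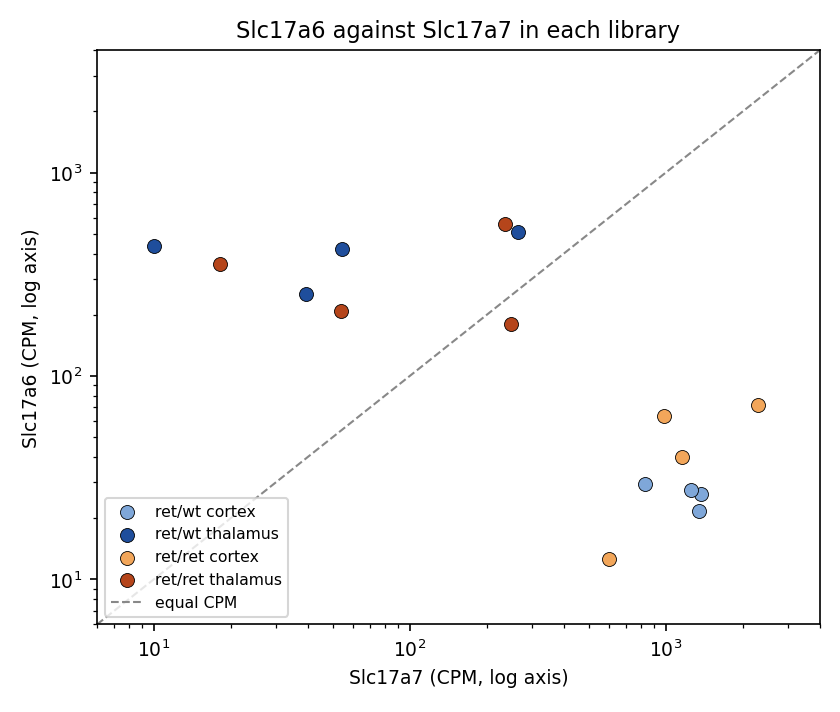
Slc17a6 against Slc17a7 in each of the 16 libraries, in CPM on log axes, coloured by group, with a dashed line at equal CPM. The 8 cortex libraries lie below the line at 602 to 2292 CPM of Slc17a7, and the thalamus libraries lie above it apart from replicate 4 of ret/ret thalamus.

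To compare the members with each other, counts were divided by the length of the longest coding transcript (4137 bases for Slc17a6, 2915 for Slc17a7 and 4456 for Slc17a8). On this per-length scale Slc17a7 made up 98.2% of the transporter RNA in ret/wt cortex and 97.3% in ret/ret cortex. Slc17a6 made up 80.0% ± 16.2 in ret/wt thalamus (SD, n = 4; 57.6% to 96.4%) and 65.4% ± 25.1 in ret/ret thalamus (SD, n = 4; 32.8% to 93.0%). Slc17a8 was the smallest share in every group, with at most 2.76% in any library. With the joined exons of each gene as its length, a choice made after seeing the data, the Slc17a6 share was 84.4% and 71.2% in the thalamus groups. The per-length level of the 3 genes together per kilobase was 292 to 480 CPM in the cortex of controls and 210 to 804 CPM in that of ret/ret animals, against thalamus levels of 74.9 to 215 CPM and 69.2 to 216 CPM. Thalamus thus held less transporter RNA in total in every ret/wt animal. In ret/ret animals the ranges of cortex and thalamus met. Thalamus held less in replicates 1, 3 and 4 but not in replicate 2, at 216 CPM against 210 CPM in cortex.

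The groups ordered differently for each gene. For Slc17a6 the order of mean CPM was ret/wt thalamus, ret/ret thalamus, ret/ret cortex and ret/wt cortex, and for Slc17a7 it was ret/ret cortex, ret/wt cortex, ret/ret thalamus and ret/wt thalamus. In both orders the neighbours that share a region overlapped, and the step between regions was the one without overlap. For Slc17a8 the order was ret/ret thalamus, ret/wt cortex, ret/ret cortex and ret/wt thalamus, and every neighbouring pair overlapped. Set against the mean log2 CPM of 12 pan-neuronal genes in the same library, Slc17a6 was 4.04 higher in thalamus in ret/wt animals and 3.04 higher in ret/ret animals. On that scale Slc17a7 was -4.46 and -3.56, and Slc17a8 was -1.35 and -0.23. The directions of Slc17a6 and Slc17a7 were therefore the same per neuronal RNA as per total RNA.

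Whether the regional difference itself differed between genotypes was tested as an interaction over all 16 libraries. The interaction was -1.16 ± 0.61 (SE) on the log2 scale for Slc17a6, 0.53 ± 1.14 (SE) for Slc17a7 and 2.15 ± 1.25 (SE) for Slc17a8. The unadjusted p-values by edgeR were 0.0743, 0.650 and 0.104, and none passed after adjustment. Of 15286 genes tested, 0 passed in edgeR, with 245 (1.60%) at an unadjusted p under 0.05. DESeq2 called 4 genes and limma-voom 0. Without ret/ret thalamus replicate 4 the Slc17a8 value turned to -0.35. The within-animal differences of Slc17a6 show the spread behind this test: 1.54, 5.46, 3.15 and 1.50 in ret/ret animals, against 3.53 to 4.12 in controls. In ret/ret replicates 1, 3 and 4 the difference was smaller than in any control. It was larger in replicate 2, whose cortex library held the cerebellar RNA and whose thalamus library had the most Slc17a6 of its group. Without that cortex library the Slc17a6 interaction was -1.47 ± 0.47 (SE, unadjusted p = 0.00664 by edgeR). Without the thalamus library of the same animal it was -1.54 ± 0.59 (SE, unadjusted p = 0.0191 by edgeR). Without the 2 animals with Y-linked reads it was -1.77 ± 0.43 (SE, unadjusted p = 0.00126 by edgeR). The Slc17a6 interaction passed in none of these fits after adjustment. The Slc17a6 interaction was weaker with the animal as a block, at -1.10 ± 0.78 (SE; unadjusted p = 0.191 by edgeR). With limma-voom it was -0.96 ± 0.65 (SE; unadjusted p = 0.1585). Over all alternatives it ran from -1.77 to -0.87, the latter without ret/ret cortex replicate 1. With 1 library left out the Slc17a7 interaction ran from 0.089 to 1.95, highest without ret/wt thalamus replicate 3 (unadjusted p = 0.0677 by edgeR).

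Genotype was compared within each region as well, and no transporter passed in either. In thalamus the log2 fold change of ret/ret minus ret/wt was -0.28 ± 0.35 (SE) for Slc17a6, 0.62 ± 0.96 (SE) for Slc17a7 and 1.85 ± 1.08 (SE) for Slc17a8. Without ret/ret thalamus replicate 4 the Slc17a8 value was -0.66, so its sign depended on that library. The Slc17a7 value was 0.18 to 2.03 with 1 library left out, and the highest of these, without ret/wt thalamus replicate 3, had an unadjusted p of 0.0471 and an adjusted p of 0.9999 by edgeR. In cortex the values were 0.86 ± 0.43 (SE), 0.08 ± 0.37 (SE) and -0.33 ± 0.40 (SE); for Slc17a6 the unadjusted p was 0.0747 by edgeR. In both regions the genotypes overlapped for all 3 genes. In cortex 3 of the 4 ret/ret libraries had more Slc17a6 than any ret/wt library, and the fourth, replicate 2 with its cerebellar RNA, had the least of all. The ret/wt cortex library with cerebellar RNA, replicate 3, had the most Slc17a6 of its group. Without ret/ret cortex replicate 2 the value was 1.17 ± 0.23 (SE; adjusted p = 0.399 by edgeR). With 1 library left out it ran from 0.57 to 1.17. In thalamus 0 of 14767 genes passed in edgeR, with 581 (3.93%) at an unadjusted p under 0.05, and DESeq2 called 37 and limma-voom 0. In cortex 3 of 14288 genes (0.0210%) passed. In thalamus, genotype and the way of dissection cannot be told apart.

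Relatives of the transporters were read in the same fits. Slc17a5, the lysosomal sialic acid transporter of the same family, was at 20.3 ± 4.11 CPM in control cortex against 16.4 ± 2.82 CPM in control thalamus (SD, n = 4 each). Its log2 fold change of -0.30 did not pass in ret/wt animals, and neither did -0.42 in ret/ret animals. Slc17a9, the vesicular nucleotide transporter, had mean levels of 0.116 to 0.521 CPM and was too low to be tested. Slc32a1, which loads GABA and glycine, was at 57.4 ± 18.9 CPM in control cortex against 111 ± 35.4 CPM in control thalamus (SD, n = 4 each). The log2 fold change was 0.97 with an adjusted p of 0.0612, and with the animal as a block it passed (0.98, adjusted p = 0.0245 by edgeR). Its value among ret/ret animals was 0.21. Without ret/ret replicate 2, the animal of that genotype with Y-linked reads, it was 0.92 and passed (adjusted p = 0.00816 by edgeR).

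Of the other vesicular transmitter transporters, 0 of 5 tested were higher and 1 lower in thalamus in ret/wt animals. In ret/ret animals 1 of 4 was higher and 1 lower. Over all genes 12.6% and 9.50% were called in either direction. The lower transporter in both genotypes was Slc30a3, which loads zinc into glutamate vesicles of the forebrain. It was at 83.1 ± 30.9 CPM in control cortex against 17.2 ± 8.55 CPM in control thalamus (SD, n = 4 each), a log2 fold change of -2.26 ± 0.40 (SE; adjusted p = 0.00514). Among ret/ret animals Slc30a3 was at -2.33, with an adjusted p of 0.0310. That call was lost in 5 of 8 fits with 1 library left out, among them ret/ret thalamus replicate 4 (adjusted p = 0.0717 by edgeR). Leaving out ret/ret cortex replicate 3 or 4, or thalamus replicate 1, 3 or 4, cut the calls over all genes. Those calls fell from 1398 to between 627 and 759. The higher transporter in ret/ret animals was Slc18a2, the vesicular monoamine transporter, chosen after its values were seen. It ran from 2.39 to 139.6 CPM in ret/ret thalamus and from 1.32 to 9.33 CPM in ret/wt thalamus, and it moved with the serotonergic markers of replicate 4. That library also held marker RNA of dopaminergic neurons, whose levels are not given here. The part of either kind of tissue in the Slc18a2 level was not tested.

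Genes that supply glutamate were read next. Of 13 tested genes of glutamate synthesis and recycling, 1 was higher and 1 lower in thalamus in ret/wt animals. In ret/ret animals 1 was higher and 0 lower. These counts were near the shares of all genes called in either direction, 12.6% and 9.50%. The median log2 fold change was 0.19 in both genotypes. The higher one in both genotypes was Slc25a18, a mitochondrial glutamate carrier, at 0.84 (adjusted p = 0.0388) and 1.09 (adjusted p = 0.0498). With the animal as a block the adjusted p-values of Slc25a18 were 0.0582 and 0.101. Both calls of this list in ret/wt animals were lost without ret/wt cortex replicate 3, for Slc25a18 with an adjusted p of 0.0850.

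Uptake of glutamate from the synapse is the work of carriers in the plasma membrane, mostly of astrocytes. Of 6 such genes, 1 was lower in thalamus in ret/wt animals and 2 in ret/ret animals, and 0 were higher. Over all genes 7.12% and 5.40% were called lower. Slc1a3 (GLAST) was at 947 ± 142 CPM in control cortex against 413 ± 24.4 CPM in control thalamus (SD, n = 4 each), a log2 fold change of -1.18 ± 0.18 (SE; adjusted p = 0.00216). Among ret/ret animals Slc1a3 was at -1.23, with an adjusted p of 0.0272, and with the animal as a block the adjusted p was 0.0627. Slc1a2 (GLT-1), named after its values were seen, was at -0.96 (adjusted p = 0.0505) and -1.14 (adjusted p = 0.0174). Without ret/ret thalamus replicate 4, and with the animal as a block, 0 of the 6 passed in ret/ret animals. The calls over all genes fell from 1398 to 688 and 1177 in those fits.

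The proton pump that powers vesicle filling showed no called regional difference. Of 18 genes of the pump and of chloride exchange, edgeR called 0 in either genotype, with 2 and 5 at an unadjusted p under 0.05, as were 27.0% and 26.7% of all genes. The highest members were Atp6v1b2, at 939 ± 106 CPM in control cortex against 853 ± 26.0 CPM in control thalamus (SD, n = 4 each), and Atp6v0c, at 712 ± 224 and 541 ± 126 CPM. Both encode parts of the vacuolar ATPase. Their log2 fold changes were -0.13 and -0.38 in ret/wt animals and -0.30 and -0.33 in ret/ret animals. The median of the list was -0.15 and -0.30, against 0.03 and -0.02 over all genes. Without ret/ret replicate 2, the animal of that genotype with Y-linked reads, 5 of the 18 were called lower in ret/ret animals. In that fit the calls over all genes rose from 1398 to 2564, and those called lower from 795 to 1418.

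Among synaptic vesicle proteins, 1 of 17 was higher and 3 lower in thalamus in ret/wt animals, and 2 were higher and 2 lower in ret/ret animals. Over all genes 12.6% and 9.50% were called in either direction. Vamp1, a vesicle protein of the fusion complex, was at 142 ± 58.4 CPM in control cortex against 805 ± 112 CPM in control thalamus (SD, n = 4 each). Its log2 fold change was 2.52 ± 0.30 (SE) in ret/wt animals (adjusted p = 0.000673) and 2.07 ± 0.26 (SE) in ret/ret animals (adjusted p = 0.00368). Vamp1 was thus higher on the side of Slc17a6. Sv2b, a vesicle glycoprotein, was lower in thalamus, as Slc17a7 was. It was at 728 ± 93.9 CPM in control cortex against 145 ± 73.4 CPM in control thalamus (SD, n = 4 each). Its log2 fold changes were -2.32 (adjusted p = 0.00168) and -2.21 (adjusted p = 0.0239). The call in ret/ret animals was lost with the animal as a block (adjusted p = 0.0676) and in 6 of 8 fits with 1 library left out. Rab3b, a small GTPase of vesicles, was at -2.24 and -1.48, and Syt1, the calcium sensor of fast release, was at -1.20 in ret/wt animals (adjusted p = 0.0201). The Rab3b call in ret/ret animals was lost when any of 7 of the 8 libraries was left out (adjusted p = 0.0571 to 0.0808). The Syt1 call in ret/wt animals was lost without either library of replicates 1 and 2 (adjusted p = 0.0566 to 0.0606). Sv2a, named after its values were seen, was the other higher gene in ret/ret animals, at 0.67 (adjusted p = 0.0239). Without ret/ret thalamus replicate 4, 1 of the 17 was called higher and 0 lower there, and the calls over all genes fell from 1398 to 688.

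Of 18 genes of the release machinery, 8 were lower and 1 higher in thalamus in ret/wt animals, and 8 were lower and 0 higher in ret/ret animals, against 7.12% and 5.40% of all genes called lower. Stx1a, a fusion protein of the nerve terminal membrane, was at 289 ± 93.6 CPM in control cortex against 28.2 ± 6.89 CPM in control thalamus (SD, n = 4 each), a log2 fold change of -3.34 ± 0.30 (SE; adjusted p = 0.00019). Cplx3, a complexin, was at -2.10 in ret/wt animals and -3.77 in ret/ret animals, and Rims1, a scaffold of the active zone, at -1.87 and -1.86. The higher gene in ret/wt animals was Unc13c, named after its values were seen, at 2.20 ± 0.49 (SE; adjusted p = 0.0150). The median of the list was -0.51 in ret/wt animals and -0.65 in ret/ret animals. Without ret/ret thalamus replicate 4, 4 of the 18 were called lower in ret/ret animals, and the calls over all genes fell from 1398 to 688.

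**Figure D4:**
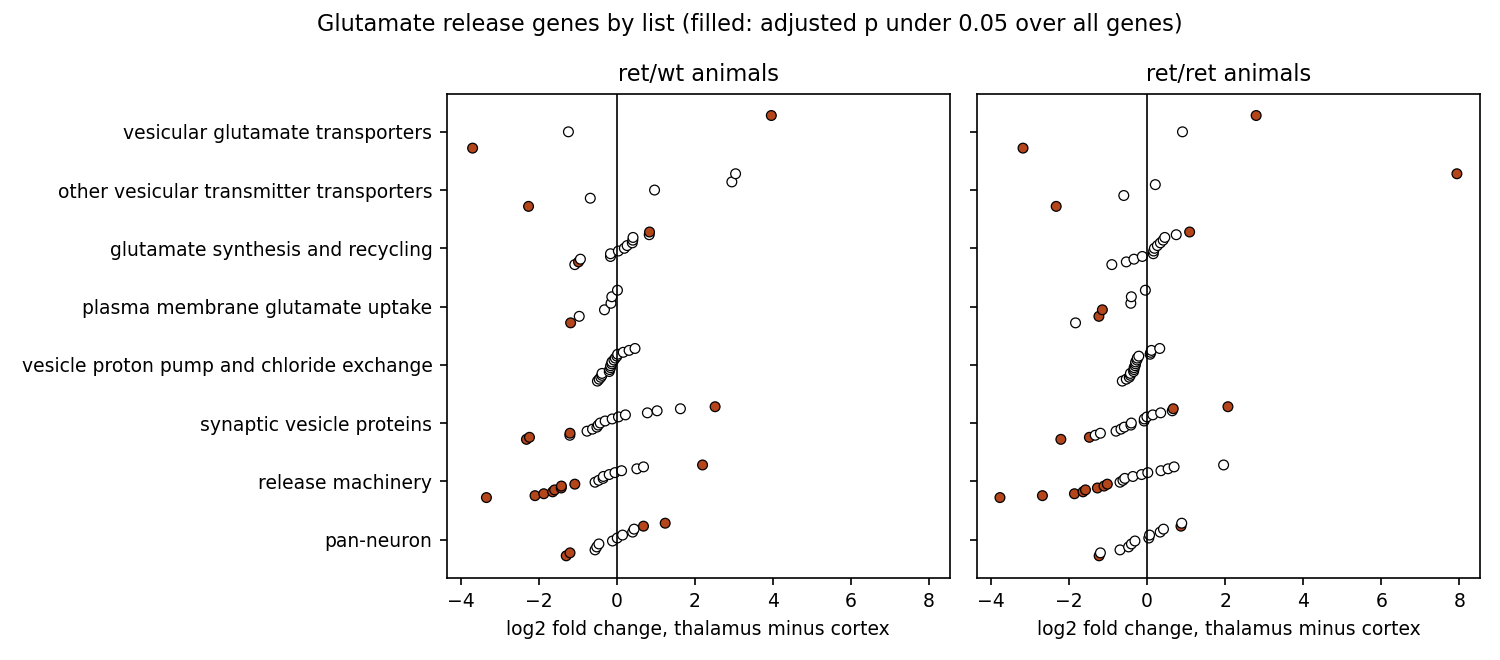
Log2 fold change of thalamus minus cortex for each tested gene of 8 lists, in ret/wt animals on the left and ret/ret animals on the right, with filled points for genes with an adjusted p under 0.05 over all genes. In ret/wt animals the vesicular glutamate transporters reach 3.96 and -3.70, while the 18 proton pump genes lie close to 0 and none is filled.

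Markers of neurons were measured beside the members. Of 12 pan-neuronal genes, 2 were higher and 2 lower in thalamus in ret/wt animals, and 1 was higher and 1 lower in ret/ret animals. Their medians were -0.05 and -0.13. The share of all genes called in either direction was 12.6% and 9.50% in the 2 genotypes. Rbfox3, the antigen NeuN, was lower in both, at -1.30 and -1.23, and Nefm, a neurofilament, was at 1.24 (adjusted p = 0.0154) and 0.89 (adjusted p = 0.0654). Without ret/wt replicate 3, the animal of that genotype with Y-linked reads, both ret/wt calls were lost (Rbfox3 adjusted p = 0.0563, Nefm adjusted p = 0.0755 by edgeR). The summed level of the 12 genes spanned 9313 to 11046 CPM (cortex) and 6651 to 9375 CPM (thalamus) among controls, and 7152 to 11425 CPM and 5702 to 8846 CPM among ret/ret animals. In both genotypes the ranges of cortex and thalamus met.

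Genes named from the lists of relay and cortical neuron markers include transcription factors. Tcf7l2, a factor of relay neurons, was at 3.10 ± 0.591 CPM in control cortex against 110 ± 41.8 CPM in control thalamus (SD, n = 4 each), with log2 fold changes of 5.16 in ret/wt and 4.34 in ret/ret animals. Shox2 rose from 0.0844 CPM in ret/wt cortex, below the floor, to 63.6 CPM in thalamus. Lef1, a factor of the same family as Tcf7l2, was at 3.34 in ret/wt animals (adjusted p = 0.000577) and at 2.40 in ret/ret animals, where it did not pass (adjusted p = 0.0592). On the cortical side Tbr1 was at 92.8 ± 27.2 CPM in control cortex against 1.68 ± 1.84 CPM in control thalamus (SD, n = 4 each). Among 9 inhibitory neuron genes the picture was mixed, with 2 higher and 2 lower in ret/wt animals and 0 higher and 3 lower in ret/ret animals. Over all genes 12.6% and 9.50% were called in either direction. Six3, a factor of the thalamic reticular nucleus, was at 6.04 (adjusted p = 0.000293) in ret/wt animals, and Lhx6 and Vip, markers of cortical interneurons, were at -5.40 and -3.45.

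The spread of Slc17a7 between thalamus libraries was set beside the marker lists. In ret/wt thalamus the mean log2 CPM of the relay neuron markers was 4.46, 5.72, 6.90 and 5.76 in replicates 1 to 4, lowest where Slc17a7 was lowest and highest where it was highest. In ret/ret thalamus it was 4.96, 7.12, 4.80 and 3.90, and there replicates 2 and 4 had similar Slc17a7 levels with the highest and the lowest marker score. The cortical marker score and the summed CPM of the same markers ordered the thalamus libraries differently. In ret/wt thalamus the score was 2.40, 3.26, 1.84 and 1.65 and the sum 571, 652, 774 and 379 CPM, so replicate 3, with the most Slc17a7, was highest by the sum and not by the score. In ret/ret thalamus the score was 2.44, 2.02, 2.32 and 3.13 and the sum 566, 754, 572 and 367 CPM, so replicate 4 was highest by the score and lowest by the sum. The hippocampal score ranged from 2.24 to 3.72 in ret/wt thalamus and from 2.55 to 2.96 in ret/ret thalamus. The part of the place of dissection in the Slc17a7 level was not tested.

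The genes whose levels ran most like each member were found among 12816 genes, by Pearson's r of log2 CPM over the 16 libraries, as a description without a test. The points share region and genotype, and the 2 libraries of an animal share its tissue. For Slc17a6 the nearest were Cyp2j6 (r = 0.957), Shox2 (0.953) and Arhgap24 (0.949). For Slc17a7, Sv2b (0.951) and Slc7a8 (0.950) were among the nearest 3. For Slc17a8 they were Sema3e (0.893), Il1rapl2 (0.792) and Efr3a (0.781). The likeness to Slc17a8 was therefore weaker after the first gene.

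With the mean of each group subtracted, what is left is the spread between libraries of a group. Slc17a6 was then most like 2900011O08Rik (r = 0.904), Ncs1 (0.901) and Fbxl2 (0.890), and Slc17a7 most like Abhd6 (0.915), Slc7a8 (0.895) and Krt12 (0.861). Slc7a8, an amino acid transporter, was the gene near Slc17a7 by both measures. Slc17a8 was most like Sema3e (0.872), Tph2 (0.864) and Neurod6 (0.857), with ret/ret thalamus replicate 4 the farthest point for Slc17a8. Over the 16 libraries the members themselves had r = -0.77 between Slc17a6 and Slc17a7, -0.44 between Slc17a6 and Slc17a8 and 0.36 between Slc17a7 and Slc17a8.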

How the data were processed

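The values that the authors deposited are expected counts of reads by Ensembl gene (21804 genes, 16 libraries). The submitters' processing notes name kallisto 0.44.0 and GRCm38.p6; how transcripts were summed to genes is not given in the sources used here. Per the labels' protocols, RNA was polyA-selected and libraries were stranded. Of the nonzero values, 99.96% were not whole (tolerance 1e-06), and they were rounded to whole numbers. Symbols came from GENCODE M21 for 21612 genes (99.1%).

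Models were fitted with edgeR 4.0.16 under R 4.3.3: filterByExpr (minimum count 10, minimum total 15), TMM factors, the quasi-likelihood test and Benjamini-Hochberg adjustment over all genes at 0.05. Each comparison of groups used its own 8 libraries and the interaction all 16. Standard errors came from the quasi-likelihood F statistic. CPM values were scaled with TMM over all 16 libraries, and list scores are means of log2 CPM (prior count 2). The floor was 3 counts. DESeq2 1.42.0 and limma 3.58.1 were alternatives, beside other scalings and filters, leaving out libraries or animals, an animal block and a fit on all libraries. Python 3.11.15 served for tables and plots, and coding sequences were aligned with Biopython 1.88.

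The animal identifiers in the labels pair the cortex and thalamus libraries with the same number within a genotype; across genotypes equal numbers are different animals. The mean correlation of paired residuals over genes was 0.0606 in ret/wt and 0.0936 in ret/ret animals. The labels name separate animals, so the spread is between animals.

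The members, gene lists and comparisons were chosen with earlier results of these data known. From each list, up to 3 genes were named by the largest change in ret/wt animals among those past the threshold, whose groups did not overlap and whose log2 CPM averaged 1 or more, or otherwise the 2 highest genes. Slc32a1, Slc17a5 and Slc17a9 were always named, and others were chosen after their values were seen. Some genes that the rule picks are not reported here. In simulated counts where some genes were changed by 2 on the log2 scale, the test recovered 74.6% in the ret/wt regional comparison and 79% in the ret/ret one, with false calls at 1.34% and 4.82% of calls.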

Additional observations from a re-analysis of the deposited data

Results flagged for a closer look

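Of 44 sets of values from a group of 4 libraries, 2 held a library far from the others; chance alone sets apart about 1 in 20. Slc17a8 was at 16.3 CPM in ret/ret thalamus replicate 4, with a gap to the next library that took 0.963 of the range of the group. In ret/wt cortex replicate 3 the mean log2 CPM of the cerebellar markers was 6.24, with a gap of 0.942 of the range.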

How the results depend on the processing

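In ret/wt animals both regional calls were kept under every alternative that gave an adjusted p, with Slc17a6 between 3.82 and 4.12 and Slc17a7 between -5.25 and -3.32; DESeq2 gave no adjusted p for Slc17a7. In ret/ret animals Slc17a6 and Slc17a7 kept their direction throughout. With the replicate block (animal) they were 2.82 (adjusted p = 0.0701) and -3.68 (adjusted p = 0.0793), and Slc17a8 was -0.48; the block changed no other call of a member. Leaving out 1 library gave 2.43 to 3.10 for Slc17a6, -3.62 to -2.69 for Slc17a7 and -1.60 to 1.29 for Slc17a8, and limma-voom gave -0.53 for Slc17a8. With 1 library left out, Slc17a8 ran from -0.35 to 2.53 in the interaction and from -0.66 to 2.22 between genotypes in thalamus, with the lowest value of each, and the -1.60 above, found without ret/ret thalamus replicate 4. Slc17a7 between genotypes in cortex turned from 0.08 to -0.050 with limma-voom, to -0.055 with a block on the replicate number and to -0.07 without ret/wt cortex replicate 3, and ran from -0.38 (without ret/ret cortex replicate 1) to 0.31 with 1 library left out.

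The number of genes called between regions in ret/wt animals, 1813, was 1178 to 1797 with 1 library left out, lowest without ret/wt cortex replicate 1. In ret/ret animals the 1398 calls became 2591 with DESeq2 and 2564 without ret/ret replicate 2, the animal of that genotype with Y-linked reads. They became 627 to 2007 with 1 library left out, lowest without ret/ret cortex replicate 3. DESeq2 called 4 genes in the interaction, 37 between genotypes in thalamus and 38 in cortex. The fit on all libraries called 3 in thalamus and 7 in cortex. In cortex the 3 calls became 1 without the 2 animals with Y-linked reads, 0 with the block on the number and 0 to 2 with 1 library left out. The cause was not tested. The share of calls that were higher in thalamus was 43.3% in ret/wt animals, 53% with upper-quartile scaling and 53.7% with library totals; in ret/ret animals it was 43.1%, and 55.3% with upper-quartile scaling. These scalings moved the median of all genes to 0.13 in ret/wt and 0.10 in ret/ret animals. Depth limits Slc17a8 most, with 6 counts in its lowest library.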

Other observations

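Oligodendrocyte genes, which make and maintain myelin, were higher in thalamus as a whole list. All 8 of 8 passed the test in ret/wt and in ret/ret animals, and did so in every alternative fit, with median log2 fold changes of 1.80 and 1.62. The summed level of the list was 1802 to 4486 CPM in ret/wt cortex and 9620 to 11636 CPM in ret/wt thalamus, and 2452 to 4481 CPM and 10692 to 16553 CPM in ret/ret animals. Cholecystokinin basket cell genes, from cells that are known to use VGLUT3, had 0 of 5 higher and 3 lower in thalamus in ret/wt animals. In ret/ret animals 1 was higher and 2 lower. Over all genes 12.6% and 9.50% were called in either direction. Of the genes of cholinergic neurons, 2 of 5 could be tested in each genotype and 0 passed in edgeR's quasi-likelihood test, with 2 at an unadjusted p under 0.05 in ret/wt animals and 1 in ret/ret animals.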
